A study of Mus musculus with 5 samples.

Results

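Heterotrimeric G proteins carry signals from receptors to enzymes and ion channels, and each consists of an alpha, a beta and a gamma subunit. The genes of 9 gamma subunits that are not those of the phototransduction cascade were measured here, namely Gng2, Gng3, Gng4, Gng5, Gng7, Gng8, Gng10, Gng11 and Gng12. They were chosen by gene symbol, each symbol had 1 row, and they were 9 of 33635 gene identifiers in the count table. RNA was measured by poly-A RNA-seq of whole retinas from male wild-type C57BL6/J mice, a common inbred laboratory strain, at P42 (postnatal day 42). A diffuser goggle, which degrades the retinal image and makes growing eyes myopic, covered the right eye from P28 for 2 weeks and made the form-deprivation myopia (FDM) group. The untreated left eye of a goggled mouse served as control, so the controls shared the animal, the goggle surgery and any systemic effect with the FDM eyes.

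There were 2 FDM libraries and 3 control libraries. FDM 1 and Control 1 came from mouse 1, FDM 3 and Control 3 from mouse 3, and Control 2 had no FDM partner among the libraries analysed here. The labels number the second FDM library 2, while the column of the count table and the mouse tables of the study number it 3, and the number 3 is used here. The refractive error at P42 given with the samples was 0.976 D in FDM 1 and 0.2745 D in FDM 3, and 2.4455 D, 3.1505 D and 2.465 D in Control 1, 2 and 3. Library totals ran from 40599047 to 56534931 estimated counts, and a gene was tested if it had more than 10 counts in at least 2 libraries, which 17432 genes and all 9 gamma subunit genes did.

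Some libraries stood apart in markers of tissues outside the neural retina. The summed level of 9 lens markers was 2005 CPM (counts scaled to the library size, per 1e6) in FDM 3 and between 3.0 and 19.4 CPM in the other 4 libraries, and all 9 were higher in FDM by the test used below. The sum of 8 markers of the retinal pigment epithelium (RPE) was 271 CPM in Control 2 and 231 CPM in Control 3 against 59.1 to 78.7 CPM in the other libraries, and 7 of the 8 were lower in FDM. Muscle markers summed to 73.3 CPM in Control 3 and to at most 9.19 CPM elsewhere. Whether these sums came from tissue carried over at dissection or from the retina itself was not tested. The study lists several crystallins among the most upregulated transcripts of the form-deprived retinas. Of 78 markers of 9 cell classes of the retina itself, 0 were called by edgeR, beside 1.61% of all genes tested. DESeq2 called 1, the cone gene Pde6c with an unadjusted p of 0.0495, beside 0.987% of all genes. The edgeR fit with the mouse as replicate block, given below, called 2 markers of rods and cones, 2 of Mueller glia, 1 of horizontal cells and 1 of microglia. It called 7.23% of all genes.

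As background, the gamma subunit is a small protein bound tightly to the beta subunit, and the pair acts as one unit. When a receptor activates the alpha subunit, the beta-gamma pair is freed and acts on inward-rectifier potassium channels, voltage-gated calcium channels, adenylyl cyclases, phospholipase C beta and G protein-coupled receptor kinases. A lipid joined to a cysteine near the end of the gamma subunit holds the pair on the membrane. In the retina, rods and cones use their own gamma subunits, Gngt1 and Gngt2, ON bipolar cells use Gng13, and the genes described here serve the many other receptors of retinal neurons, glia and vessels.

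The coding sequences of the 9 genes end in the box that receives this lipid, and their ends are shown because the last codon of the box divides the family. The 27 bases from each gene are the last codons and the stop codon, 5′ to 3′ on the coding strand, from the GRCm38 (mm10) genome with the GENCODE M21 annotation. The 12 capitals mark the 4 codons of the box, which open with a cysteine codon.
Gng2: aagaagttcttcTGCGCCATCCTTtaa
Gng3: aagaagttcttcTGTGCGCTCCTCtga
Gng4: aagaagttcttcTGCACCATCCTCtaa
Gng8: aagcgactctttTGCACCCTGCTCtga
Gng7: gacaaaaagcctTGCATAATTCTCtag
Gng12: gataagaagaccTGCATCATCTTAtag
Gng5: ccccagaaagtcTGCTCCTTTTTGtag
Gng10: gagcccaggtccTGTGCTCTACTTtga
Gng11: gaaaagggcagcTGTGTCATTTCAtaa

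In 8 of the 9 genes the box closed with a leucine codon, and in Gng11 it closed with a serine codon. A final leucine is the textbook signal for the geranylgeranyl lipid, and a final serine that for the shorter farnesyl lipid. The 12 lower-case bases before the box were the same letters in Gng2, Gng3 and Gng4. Over the whole coding sequence, Gng4 was 73.7% identical to Gng2 and 71.5% identical to Gng3, and Gng11 stood farthest from Gng4, at 49.8%. The coding sequences were short, from 207 bases in Gng5 and Gng10 to 252 bases in Gng12.

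The genes lie apart in the genome. Gng4 (ENSMUSG00000021303) spans chr13:13784059-13827896 on the plus strand, and its printed end lies in the coding part of an exon at chr13:13825349-13825375. Gng11 (ENSMUSG00000032766) spans chr6:4003904-4008445 and Gng12 (ENSMUSG00000036402) spans chr6:66896397-67021350, both on the plus strand. Gng2 (ENSMUSG00000043004) spans chr14:19872559-19977627 and Gng3 (ENSMUSG00000071658) spans chr19:8836933-8839194, both on the minus strand. Gng7 (ENSMUSG00000048240) spans chr10:80948624-81014945 on the minus strand. Gng5 (ENSMUSG00000068523) at chr3:146499807-146505572, Gng8 (ENSMUSG00000063594) at chr7:16891786-16895436 and Gng10 (ENSMUSG00000038607) at chr4:59035088-59041903 are on the plus strand.

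Parts of some of these transcripts are shared with other annotated genes, and the library kit (TruSeq v2) does not mark strand. Of the 31-base words of Gng10, 71.9% also occur in Gm20503, a gene annotated on the same strand, so the sequence of such reads does not tell these genes apart. For Gng3, 22.8% of the words occur in Bscl2, which is annotated on the opposite strand and had 3792 to 4442 counts per library. For Gng2, 20.4% occur in other genes, most of them in the opposite-strand Gm48283. The shares were 9.4% for Gng5, 2.0% each for Gng4 and Gng12, 0.1% for Gng7, and 0 for Gng8 and Gng11. Neither Gm20503 nor Gm48283 was found by its symbol in the count table, so counts of these genes were not analysed here.

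The first question was which gamma subunit genes the retina expressed most. Levels between genes are compared as CPM per kilobase of exon, averaged over the 5 libraries. Gng3, a gamma subunit known from neurons, was the highest, with 71.5 CPM per kilobase and a range over libraries of 65.7 to 80.7. It made up 56.6% of the summed level of the 9 genes.

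Gng2 followed with 13.9 CPM per kilobase (range 13.4 to 14.6) and Gng7, best known from the striatum, with 12.1 (range 10.3 to 13.0). Their ranges overlapped neither with each other nor with that of Gng3, and Gng7 in turn lay above the next gene in every library. A middle group held Gng4 with 7.14 CPM per kilobase (range 5.44 to 8.76), Gng11 with 6.49 (range 5.52 to 7.63), Gng10 with 6.12 (range 5.39 to 6.52) and Gng5 with 6.07 (range 5.57 to 6.53). Neighbours within this group had overlapping ranges, so their order was not larger than the spread between libraries. With the length of the longest transcript in place of all exon bases, Gng5 moved from rank 7 to rank 5 and Gng11 from rank 5 to rank 7. Shorter coding transcripts are annotated too, down to 593 bases for Gng5 and 393 for Gng2. Which transcripts gave the reads was not tested, so the order and the share of Gng3 hold for these lengths only. Gng12 was lower at 2.26 CPM per kilobase (range 2.05 to 2.46), and Gng8, known from olfactory and vomeronasal neurons, was lowest at 0.626 (range 0.553 to 0.712).

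Set beside the other gamma and the beta subunits in the same libraries, all 9 genes lay below Gngt1, Gnb1, Gnb5 and Gnb3 on average. Gng3 lay above Gngt2, Gng14, Gnb2 and Gnb4. The rod gamma subunit Gngt1 had 286 CPM per kilobase, the cone subunit Gngt2 30.0 and the ON bipolar subunit Gng13 80.9, while the remaining gamma subunit gene, Gng14, had 1.19. Thus Gng3 lay below Gng13 on average, and their ranges (65.7 to 80.7 against 77.4 to 84.9) overlapped. Among the beta subunits, Gnb1, the beta subunit of rods, had 1164 CPM per kilobase. Gnb5, the partner of the R7 class of RGS proteins, had 244, Gnb3, the beta subunit of cones and ON bipolar cells, had 161, Gnb2 had 29.6 and Gnb4 had 0.808.

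**Figure D1:**
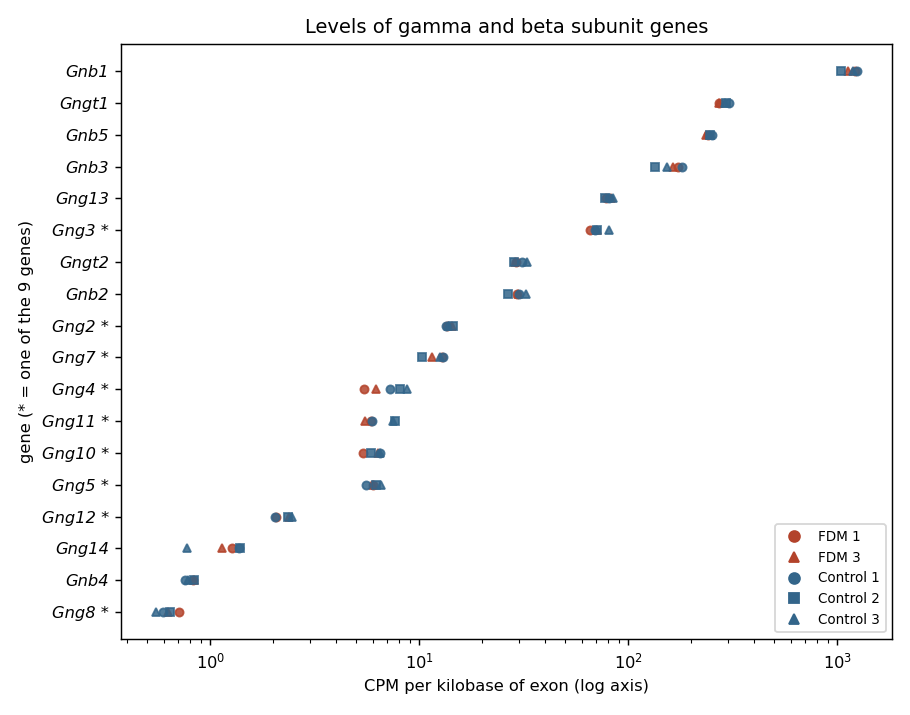
Level of each gamma and beta subunit gene in CPM per kilobase of exon (horizontal log axis), with 1 point per library, red for FDM and blue for control, and a star at the names of the 9 genes described here. Gng3 lies beside Gng13 and above the other 8 genes, and Gng4, Gng11, Gng10 and Gng5 form an overlapping group. In Gng4, Gng11, Gngt1 and Gnb5 the 2 red points lie below the 3 blue ones.

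The second question was whether form deprivation changed these genes. Gng4, a gamma subunit known from neurons and close to Gng2 and Gng3 in sequence, was lower in the FDM retinas, and it was the only 1 of the 9 that passed the threshold, an unadjusted p of 0.05 in edgeR's quasi-likelihood test. Of all 17432 genes tested, 1.61% passed this threshold in either direction and 1.16% passed it as lower in FDM. No gene of the table passed after Benjamini-Hochberg adjustment in edgeR, while DESeq2 had 3 genes with an adjusted p under 0.05, none of them among the 9. The median log2 fold change was -0.04 over the 9 genes, of which 3 had a positive and 6 a negative estimate, and -0.01 over all genes tested, of which 7744 had a positive and 9688 a negative estimate.

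Gng4 had 788 counts in FDM 1 and 999 in FDM 3, and 966, 1534 and 1389 counts in Control 1, 2 and 3. Scaled to the library, these were 18.2 and 20.8 CPM in the FDM eyes and 24.2, 26.9 and 29.3 CPM in the control eyes. Both FDM values lay below every control value, an order that 6.67% of all genes tested showed. The mean was 19.5 ± 1.83 CPM (SD, n = 2) in FDM and 26.8 ± 2.53 CPM (SD, n = 3) in control, and the fitted change was -27.3%. The log2 fold change was -0.46 (SE 0.11, 95% interval -0.72 to -0.20), with a p of 0.00397 before and 1.0 after Benjamini-Hochberg adjustment in edgeR, and the adjusted value of the other 8 genes was 1.0 as well. Its part in the summed level per kilobase of the 9 genes was 4.63% and 5.04% in FDM 1 and FDM 3, against 5.87%, 6.34% and 6.28% in Control 1, 2 and 3.

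**Figure D2:**
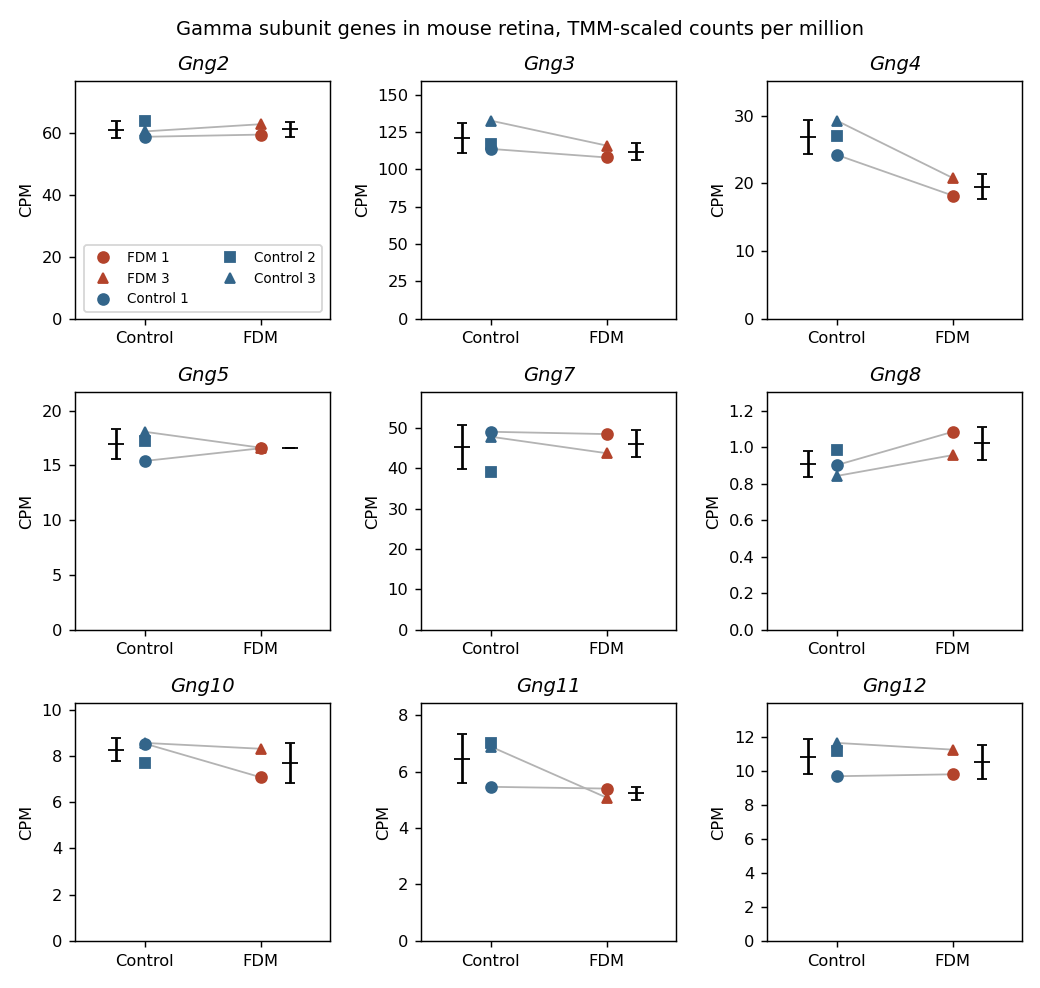
Level of each of the 9 genes in CPM (vertical axis from 0, a scale of its own for each gene) in the control and FDM libraries, with grey lines joining the eyes of 1 mouse and black bars giving the group mean with its SD. In Gng4 both FDM points, at 18.2 and 20.8 CPM, lie below the lowest control at 24.2 CPM, in Gng11 they lie just below the lowest control, and in the other 7 genes the groups overlap.

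With the mouse as a replicate block, so that each FDM eye is set against the other eye of the same animal, the log2 fold change of Gng4 was -0.45, and the p was 4.03e-05 before and 0.0173 after Benjamini-Hochberg adjustment in edgeR. This fit leaves 1 residual degree of freedom, and 7.23% of all genes passed the unadjusted threshold in it, 3.67% as lower in FDM, while 54 genes had an adjusted p under 0.05. It also passed Gng3, with a log2 fold change of -0.14 and a p of 0.0476 before and 0.686 after adjustment. Numbered as in the labels, the block gave Gng4 a log2 fold change of -0.39 with an adjusted p of 0.324.

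The Gng4 call rested in part on 1 library. Without FDM 1, which had the lower value, the log2 fold change was -0.37 and the unadjusted p was 0.0546, so the call was lost. Without FDM 3, the library with the high lens signal, it was -0.56 with a p of 0.00964. Leaving out Control 2 or Control 3, the libraries with the high RPE signal, gave -0.45 with a p of 0.00903 and -0.39 with a p of 0.0214 in edgeR. The estimate was thus negative whichever library was left out. Gng4 was highest in Control 2 and Control 3, and each fit without 1 of them kept the other. The part of RPE tissue in the Gng4 values was therefore not tested. Markers of ganglion cells summed to 1099 and 1242 CPM in FDM and to 1076 to 1311 CPM in control, and those of amacrine cells to 963 to 978 CPM against 953 to 976 CPM, so the ranges of both classes overlapped between the groups. Of 9 retinal cell classes the summed marker levels overlapped in 7. Those of microglia did not, with 34.6 and 31.3 CPM in FDM 1 and FDM 3 against 35.2, 38.2 and 40.7 CPM in Control 1, 2 and 3, and those of bipolar cells did not, with 1694 to 1720 CPM in FDM against 1669 to 1684 CPM in control. Among single genes tested, 6.67% had both FDM values below every control, and the share in either direction was not counted. The 2 classes without overlap are therefore given as description only. The part of either class in the Gng4 and Gng11 values was not tested. In bulk retina, fewer cells of a type and less RNA per cell cannot be told apart.

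The size of the Gng4 difference depended on the deposited normalization. Dividing the deposited counts by the deposited normalized values gives a factor for each gene in each library, and these factors differed between genes of 1 library. Relative to the median factor of its library, that of Gng4 was 0.896 in FDM 1 and 0.943 in FDM 3, and 0.981, 1.04 and 1.16 in Control 1, 2 and 3. The factors had the same order over the 5 libraries as the CPM values of Gng4, with both FDM values below every control value. The mean log2 difference between the groups was -0.20, and of 9914 genes with more than 500 counts in every library, 23 had a lower one and 0.373% lay further from 0. The middle 90% of those genes lay between -0.07 and 0.06.

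After that division Gng4 read 953 and 1034 normalized counts in FDM 1 and FDM 3, and 1144, 1218 and 1180 in Control 1, 2 and 3. The groups did not overlap on this scale either. The log2 fold change was then -0.25, with an unadjusted p of 0.0210 in edgeR and 0.0261 in DESeq2, so the call held at a smaller size, beside 1.2% of all genes that edgeR called lower with these factors. How these factors arose, and which scale is nearer to the RNA in the tissue, was not tested. Besides the coding transcript of 3179 bases, the annotation lists non-coding Gng4 transcripts of 206 and 324 bases.

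**Figure D3:**
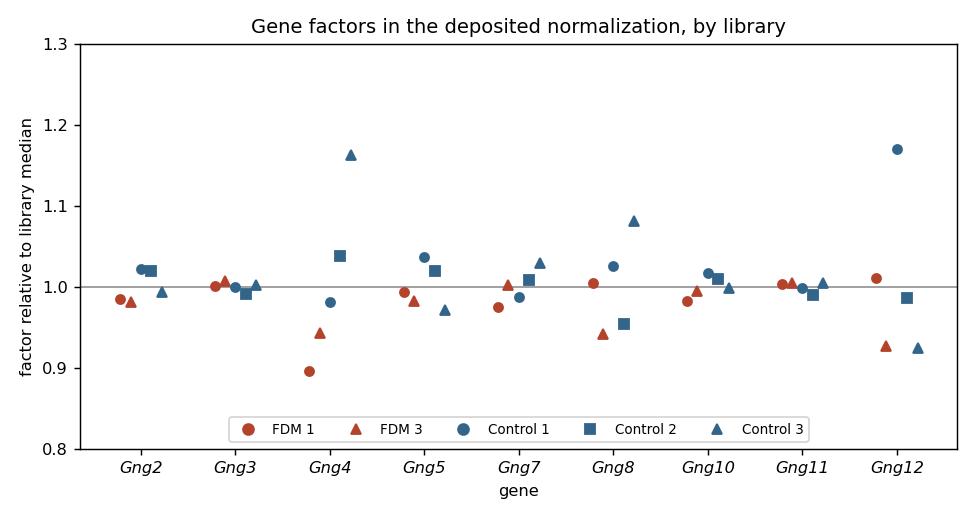
Factor by which the deposited normalization divided each gene in each library, relative to the median factor of that library (vertical axis, not from 0), red for FDM and blue for control. Gng4 runs from 0.896 in FDM 1 to 1.16 in Control 3 with the FDM points lowest, Gng12 has its highest factor, 1.17, in Control 1, and Gng3 and Gng11 stay within 0.990 and 1.01.

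Gng11, the farnesylated member, known from endothelium among other tissues, was the other gene with both FDM values below every control. It had 234 and 244 counts in FDM 1 and FDM 3 and 218, 400 and 327 counts in Control 1, 2 and 3, or 5.40 and 5.07 CPM against 5.46, 7.02 and 6.89 CPM. Control 1 was within 0.1 CPM of FDM 1, and only Control 2 and Control 3 were clearly higher. The log2 fold change was -0.30 (SE 0.15, 95% interval -0.65 to 0.05) with an unadjusted p of 0.0787 in edgeR, so it did not pass.

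Without Control 1, Gng11 passed, with a log2 fold change of -0.41 and a p of 0.0141 before and 0.760 after adjustment in edgeR. In that fit 944 of all 17432 genes tested passed the unadjusted threshold, against 281 in the fit on all libraries. Control 2 and Control 3, where Gng11 was high, were also the libraries with the high RPE sums given above, and the part of that tissue in the Gng11 values was not tested. Markers of endothelium and pericytes summed to 395 and 433 CPM in FDM and to 382 to 432 CPM in control, so these ranges overlapped. The deposited factors of Gng11 ran only from 0.990 to 1.005, and its log2 fold change with them was -0.31.

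Gng3, with the most counts of the 9, had 4678 and 5572 counts in FDM 1 and FDM 3 and 4538, 6676 and 6296 in Control 1, 2 and 3. This was 108 and 116 CPM in FDM against 114, 117 and 133 CPM in control, and the groups overlapped through FDM 3 and Control 1. Its log2 fold change was -0.11 (SE 0.10, 95% interval -0.34 to 0.11), with an unadjusted p of 0.278 in edgeR. An estimate of this size was within the spread between libraries except in the fit with the mouse as block given above.

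Gng2, a widely expressed partner of Gnb1, was nearly level, with 59.5 and 62.9 CPM in FDM and 58.8, 64.0 and 60.5 CPM in control. Its log2 fold change was 0.00 (SE 0.08, 95% interval -0.19 to 0.20), the narrowest interval of the 9. Gng7, which in the striatum pairs with the olfactory type of alpha subunit, had 48.5 and 43.7 CPM against 49.1, 39.2 and 47.8 CPM, and a log2 fold change of 0.02 (SE 0.12, 95% interval -0.25 to 0.30). In both genes the FDM values lay within the range of the controls.

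Gng5, Gng10 and Gng12 are widely expressed members. Gng5 had 16.6 CPM in both FDM libraries and 15.4, 17.3 and 18.1 CPM in the controls, with a log2 fold change of -0.03 (SE 0.10, 95% interval -0.27 to 0.21). Gng12 had 9.78 and 11.2 CPM against 9.67, 11.1 and 11.6 CPM, with a log2 fold change of -0.04 (SE 0.13, 95% interval -0.34 to 0.25). Both lay within the control range.

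Gng10 had 7.08 CPM in FDM 1, below every control, and 8.32 CPM in FDM 3, within the control values of 8.54, 7.70 and 8.57 CPM. Its log2 fold change was -0.10 (SE 0.12, 95% interval -0.39 to 0.19). How far the sequence shared with Gm20503 bears on these values was not tested. Gng8 was scarce, with 47 and 46 counts in FDM and 36, 56 and 40 in control, or 1.08 and 0.956 CPM against 0.902, 0.982 and 0.842 CPM. Its log2 fold change of 0.16 had the widest interval of the 9 (SE 0.21, 95% interval -0.33 to 0.65), and a change of moderate size in either direction was not detectable at this depth. The unadjusted p of these 6 genes without a call or a group order of their own (Gng2, Gng5, Gng7, Gng8, Gng10 and Gng12) ran from 0.437 to 0.986 in edgeR.

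**Figure D4:**
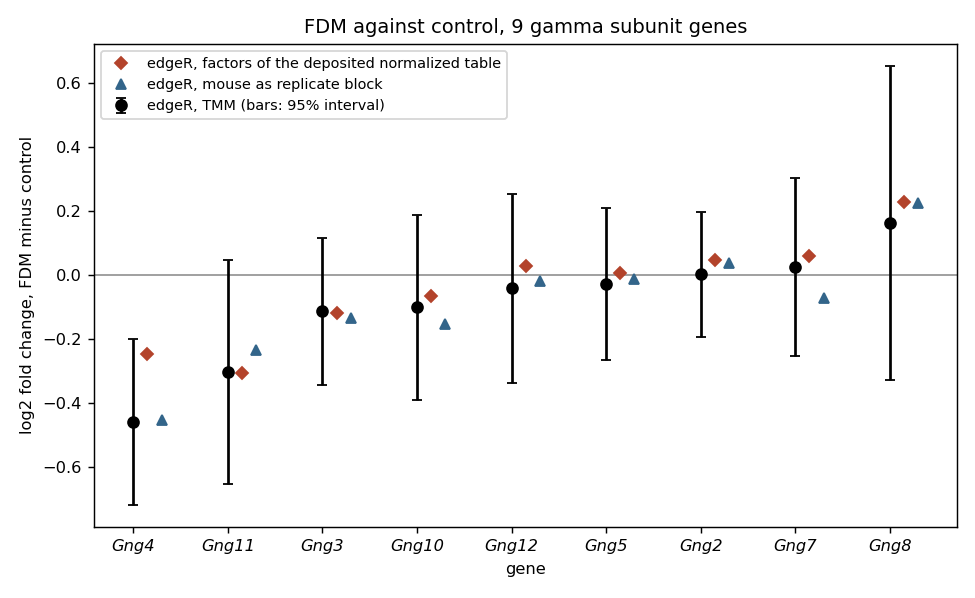
Log2 fold change of FDM against control (vertical axis) for each of the 9 genes, as black points with 95% intervals from edgeR with TMM scaling, blue triangles with the mouse as replicate block and red diamonds with the factors of the deposited normalized table. The interval of Gng4, from -0.72 to -0.20, is the only 1 that leaves out 0, and the red diamond of Gng4 lies at -0.25.

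The third question was whether both eye pairs gave the same direction. For Gng4 and Gng11 the sign was already fixed, because both FDM values lay below every control, so the pairs add only sizes. In mouse 1 the log2 difference of Gng4, FDM eye minus control eye, was -0.41, and in mouse 3 it was -0.49. Both lay at the low edge of all genes tested, of which 4.37% were lower than Gng4 in mouse 1 and 4.06% in mouse 3. The 5th and 95th percentiles of all genes were -0.38 and 0.37 in mouse 1 and -0.43 and 0.37 in mouse 3. From the deposited normalized values, the Gng4 differences were smaller, -0.26 and -0.19.

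Of the 9 genes, 5 were lower in the FDM eye of both mice (Gng3, Gng4, Gng7, Gng10 and Gng11), against 30.3% of all genes tested, which is 5288 genes. This count is a description only, because the signs of Gng4 and Gng11 were fixed by the group order. Gng7 was at -0.02 in mouse 1, where the median of all genes tested was also -0.02. From the deposited normalized values, Gng7 was at 0.02 in mouse 1. Gng2 and Gng8 were higher in both FDM eyes, and Gng5 and Gng12 differed in sign between the mice. Gng11 was level in mouse 1, with -0.02, and lower in mouse 3, with -0.43. Gng10 showed the other order, with -0.27 in mouse 1 and -0.04 in mouse 3. For Gng3 the differences were -0.07 and -0.19. The remaining differences ran from -0.13 (Gng7 in mouse 3) to 0.24 (Gng8 in mouse 1). With 1 pair per mouse, single differences have no replicate check.

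**Figure D5:**
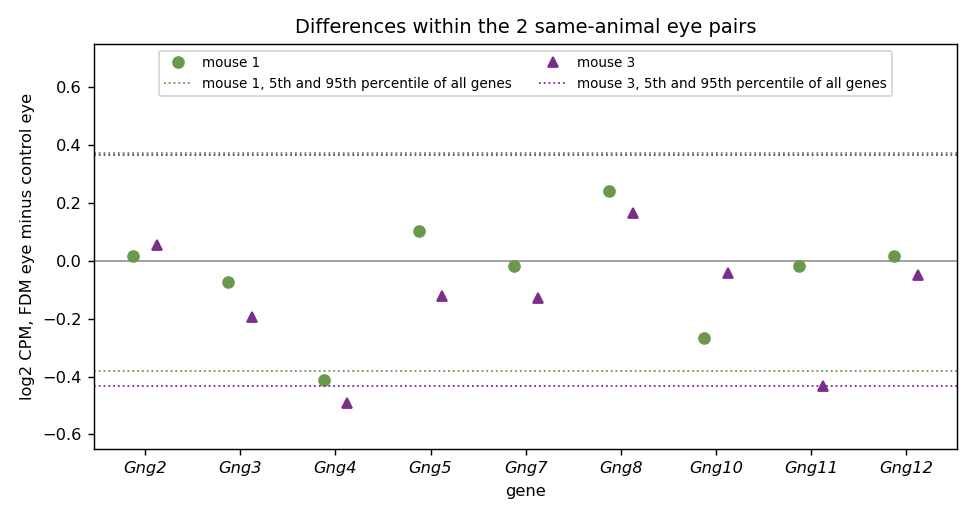
Log2 CPM of the FDM eye minus that of the control eye (vertical axis) in mouse 1 (green circles) and mouse 3 (purple triangles) for each of the 9 genes, with dotted lines at the 5th and 95th percentiles of all genes tested. Gng4 lies below the lower line in both mice, at -0.41 and -0.49, Gng11 is at that line in mouse 3 alone, and the other 7 genes lie between the lines.

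The genes that act with the gamma subunits showed no call in edgeR. Of 89 such genes, 85 were tested, and 0 passed the unadjusted threshold in edgeR or in DESeq2, where 1.61% and 0.987% of all genes did. With the mouse as replicate block 10 of the 85 passed (11.8%, against 7.23% of all genes), 7 higher and 3 lower in FDM.

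By role, the 5 beta subunits, with which gamma subunits pair, had a median log2 fold change of 0.01. The largest estimate among them was 0.11 for Gnb3 (SE 0.13), and that of Gnb1 was 0.01 (SE 0.11). Gnb5 was at 749 and 731 CPM in FDM and 781, 769 and 766 CPM in control, with no overlap. Its log2 fold change was -0.06 (SE 0.08), with an unadjusted p of 0.458 in edgeR. The 4 remaining gamma subunit genes had a median of -0.05. Gngt1 was at 956 and 959 CPM in FDM and 1061, 1027 and 1016 CPM in control, with no overlap and a log2 fold change of -0.11 (SE 0.08), and its p was 0.200 in edgeR and 0.0497 with the mouse as block. The log2 fold change of Gngt2 was -0.10, with a p of 0.321 in edgeR and 0.0459 with the block, and that of Gng13 was -0.01.

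Of the alpha subunits 15 of 16 were tested, with a median log2 fold change of 0.02, and the highest per kilobase of all exon bases were the transducins of rods and cones, Gnat1 (-0.02, SE 0.14) and Gnat2 (0.02, SE 0.09). With the length of the longest transcript Gnat1 was again highest, at 5216 CPM per kilobase, but Gnas (160) and Gnao1 (81.7) lay above Gnat2 (79.8). The 27 effector genes of the beta-gamma pair had a median of 0.01, and the highest per kilobase of all exon bases were the adenylyl cyclases Adcy6 (0.06) and Adcy1 (0.06). The 25 tested genes of RGS proteins, which switch alpha subunits off, and of chaperones of the beta-gamma pair had a median of 0.01. The highest per kilobase of all exon bases were Pdc, encoding phosducin, which binds the beta-gamma pair in photoreceptors (0.09), and Rgs9bp, the membrane anchor of RGS9 (0.09). With the mouse as block, Rgs9bp passed as higher in FDM (log2 fold change 0.20, unadjusted p of 0.00404), as did Rgs9 itself (0.31, unadjusted p of 0.000877) and Adcy1 (0.13, unadjusted p of 0.0307), and Gnat1 passed as lower (-0.15, unadjusted p of 0.0247). Gnal (0.18, unadjusted p of 0.0169), Plcb4 (0.17, 0.0311), Plcb1 (0.19, 0.0314) and Cacna1b (0.15, 0.0415) also passed as higher in that edgeR fit. The adjusted p of these calls in it ran from 0.175 for Rgs9 to 0.681 for Cacna1b. For Gngt1 and Gngt2, called in the same edgeR fit, the adjusted p was 0.689 and 0.683. The 9 prenylation genes, which make, attach or trim the lipid at the box shown above, had a median of -0.03.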

How the data were processed

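The authors trimmed the reads with Trimmomatic 0.39, quantified them with Salmon 1.10.1, and deposited estimated counts per gene, as whole numbers, for 5 retinal libraries (GRCm38, mm10). They also deposited a signal of normalized counts, made in R 4.3.1. Of 33636 rows 1 repeated an identifier. Of the 33635 identifiers 33585 were found in GENCODE M21, which gave coordinates, exon lengths and sequences. The study names an Ensembl release of GRCm38 for its meta-analysis, and does not state whether it also lies behind the deposited counts.

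Groups came from the labels. The test was that of edgeR 4.0.16 (quasi-likelihood, two-sided, TMM factors, no covariate, R 4.3.3) on the estimated counts, and genes entered it with over 10 counts in 2 or more libraries. The threshold was the unadjusted p of 0.05 that the study used, with Benjamini-Hochberg values over all 17432 genes. SE is the size of the log2 fold change over the root of its F statistic. CPM are counts scaled to the library total times the TMM factor. At these depths 3 counts are 0.0531 to 0.0739 CPM, which covers counting error only.

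The 5 libraries stand for 3 mice, and the test treats them as separate samples. The pairing comes from the mouse numbers of the study. Deviations of FDM 3 from its group mean correlated at 0.125 with those of Control 3, its partner, at 0.155 with Control 2 and at -0.258 with Control 1. Those of FDM 1 are the same values with the sign turned, so these correlations do not settle the pairing. Alternatives were DESeq2 1.42.0, limma 3.58.1 with the deposited normalized signal on a log2 scale after adding 1 or 0.1, other scalings and filters, the mouse or the title number as block, and each library left out. For the 17432 genes simulated with 200 changed, and among changed genes with over 100 counts, edgeR recovered 86% at 1.4-fold and 99% at 2-fold, and it called 4.65% and 4.85% of unchanged genes. The simulated libraries shared no animal and held no library-wide excess of lens, RPE or muscle markers. In the real libraries the same test called only 1.61% of all genes, so the simulated shares need not hold for them.

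The genes, lists and markers were chosen with earlier results of these data known. The naming rule took the 9 genes, the other gamma and beta subunits, genes that overlap or share words with a member, and, from the other lists, called genes and the 2 most abundant per kilobase. Pde6c, Rgs9, Gnal, Plcb4, Plcb1 and Cacna1b were named after their values were seen. Protein sequences were not used here.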

Additional observations from a re-analysis of the deposited data

How the results depend on the processing

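Of the 9 gamma subunit genes 1 passed the unadjusted threshold, and this count was 2 with the mouse as replicate block (Gng4 and Gng3) and 0 to 2 when each library was left out, with 0 without FDM 1 and 2 without Control 1 (Gng4 and Gng11). Over all genes, 281 passed, against 172 in DESeq2, 498 without a count filter (24659 genes tested), 1261 with the mouse as replicate block, 439 with the title number as replicate block, and 146 to 944 with each library left out (the ends without Control 3 and without Control 1). With 1 FDM library left, its spread was taken from the controls. The log2 fold change of Gng4 was negative in all 16 alternatives, from -0.56 to -0.25, and 15 of them had an unadjusted p under 0.05, the exception being the fit without FDM 1.

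Estimates near 0 changed sign. With the deposited factors, Gng5 was 0.00451 in edgeR, 0.00423 in DESeq2 and 0.0116 in limma with both pseudocounts, and Gng12 was 0.0292 in edgeR and DESeq2 and 0.0431 and 0.0432 in limma. Gng2 was -0.00221 without a filter. With the title number as replicate block Gng2 was -0.00454, Gng5 0.0236 and Gng12 0.0141, and with the mouse as block Gng7 was -0.0734. With each library left out, Gng2 ran from -0.0387 to 0.0466, Gng5 from -0.0893 to 0.0278, Gng7 from -0.0610 to 0.0970, Gng10 from -0.223 to 0.00875 and Gng12 from -0.145 to 0.0538, so their directions are not settled here. The cause of these changes was not tested. Gng3, Gng8 and Gng11 kept their sign in all 16 alternatives. Among the lists, the mouse block called 2 alpha, 2 other gamma, 4 effector and 2 RGS or chaperone genes. The title block called 1 RGS or chaperone gene, and edgeR or limma with the deposited factors called 1 effector. With each library left out, 0 to 1 alpha, 0 to 2 effector and 0 to 2 RGS or chaperone genes were called.

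The comparison rests on 2 FDM eyes from 2 mice, and Gng8, with 36 to 56 counts per library, is limited by depth.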
